A study of Mus musculus with 3 samples.

Results

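Matrix metalloproteinases, their tissue inhibitors and the sheddase Adam17 were examined as a set of 10 genes: Mmp8, Mmp9, Mmp12, Mmp13, Mmp14, Mmp19, Timp1, Timp2, Timp3 and Adam17. They were taken by gene symbol from the gene tables, and all 10 were found among 55536 mouse genes, of which 22028 are protein-coding. The libraries were total RNA from the cytosolic fraction of bone marrow-derived macrophages (primary macrophages grown from marrow) of the C57BL/6J mouse strain. All cells had met Lipid A for 12 h at 100 ng/ml, had 12 h without it after a washout, and were exposed again at 100 ng/ml during 120 min. Lipid A is the membrane anchor of bacterial lipopolysaccharide and the part that activates Toll-like receptor 4. The 3 libraries formed 1 group, with no untreated or once-treated cells, so every value below describes the twice-treated state and no change caused by treatment can be read from it. The replicates shared 1 donor entry, that of the strain, and age and sex were not recorded. No label says that they came from separate animals or cultures, so the spread between them may be technical.

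Matrix metalloproteinases (MMPs) are zinc enzymes that cut collagen, elastin and other proteins of the extracellular matrix, as well as cytokines and receptors. Most are secreted as inactive precursors in which a cysteine of the propeptide blocks the zinc, and a few, such as Mmp14, are anchored in the cell membrane. Tissue inhibitors of metalloproteinases (TIMPs) fill the active site, and Timp2 together with Mmp14 also forms the surface complex that activates pro-Mmp2. Adam17, also called TACE, belongs to the related ADAM family and releases membrane-bound tumour necrosis factor (Tnf) from macrophages, with the catalytically inactive rhomboids Rhbdf1 and Rhbdf2 as its partners. RNA levels say nothing of how much active enzyme was present.

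The feature shared by the 7 proteases is the zinc-binding site, and its coding sequence is shown to let the members be told apart. A search of the coding sequences in the GENCODE M21 transcripts for the protein pattern histidine, glutamate, any 2 residues, histidine, any 2, glycine, any 2, histidine found it in all 6 MMPs and in Adam17. It was found in none of the 3 TIMPs. Each sequence is 33 bases, read 5′ to 3′ on the coding strand from the protein-coding transcript of highest mean level that held it, and the capitals mark the codons of the 3 histidines and the catalytic glutamate.
Mmp14: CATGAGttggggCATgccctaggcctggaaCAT
Mmp13: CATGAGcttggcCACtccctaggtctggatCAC
Mmp8: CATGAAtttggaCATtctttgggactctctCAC
Mmp12: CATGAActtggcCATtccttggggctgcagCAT
Mmp9: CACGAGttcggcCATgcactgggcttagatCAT
Mmp19: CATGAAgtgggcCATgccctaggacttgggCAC
Adam17: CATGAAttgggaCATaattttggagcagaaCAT
In mm10 coordinates the site lies in exon 5 of 10 of Mmp14-201 at chr14:54437627-54437659 (plus strand), in exon 5 of 10 of Mmp13-201 at chr9:7276573-7276605 (plus) and in exon 5 of 10 of Mmp8-201 at chr9:7563086-7563118 (plus). It lies in exon 6 of 11 of Mmp12-203 at chr9:7352914-7352946 (plus), in exon 8 of 13 of Mmp9-201 at chr2:164951133-164951165 (plus) and in exon 5 of 9 of Mmp19-201 at chr10:128795673-128795705 (plus). That of Adam17-201 is in exon 11 of 19 at chr12:21336732-21336764 on the minus strand. A pair of MMP members had 20 to 25 of the 33 bases in common, and Adam17 had 17 to 22 in common with an MMP. Upstream of the site, all 6 MMPs carried the residues proline, arginine, cysteine, glycine that mark the cysteine switch of MMPs, and Adam17 did not. Other forms of the switch were not searched for, so whether Adam17 carries one was not tested. The pattern arginine, any residue, lysine or arginine, arginine, which proprotein convertases such as furin can cut, was found upstream of the site in 2 members, Mmp14 and Adam17.

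Each gene table gave expected counts and TPM, a relative unit that corrects for transcript length and library depth. The libraries held 29273913, 64712406 and 37602753 expected counts in mouse genes in replicates 1, 2 and 3. Protein-coding genes took 32.5%, 26.5% and 27.1% of TPM, so a TPM of replicate 1 is on a different footing from that of the others, and levels were therefore also read after rescaling over protein-coding and long noncoding genes. Replicate 3 stood apart in nuclear and mitochondrial RNA. The nuclear RNA Malat1 had 191, 133 and 952 TPM in replicates 1, 2 and 3, and mitochondrial genes took 0.156%, 0.125% and 0.398% of TPM. All 10 macrophage markers, led by Lyz2, Ctss and Cd68, were at 1 TPM or more in every library. Fibroblast markers reached 1 TPM in no library (0 of 10 genes, summed level 0.25 to 0.45 TPM), and their highest, Pdgfrb, Acta2 and Thy1, averaged 0.17, 0.10 and 0.04 TPM.

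Of the 10 members, 7 were at 1 TPM or more in all 3 libraries: Mmp14, Timp2, Adam17, Mmp13, Mmp12, Mmp19 and Mmp8. Over all protein-coding genes the share was 39.1%. In the second quantification 5 members passed. Mean TPM was lower there for all members except Timp3, so the same threshold was stricter. The share of all protein-coding genes passing there was not computed, so the smaller count is not a result about the members. Mmp8, at 0.764, 1.29 and 0.814 TPM, and Mmp12, at 0.958 TPM in replicate 3, did not. Mmp14 was the highest and Timp3 the lowest, and the means of the set spanned 0.0133 to 101 TPM. Timp1 was at 1 TPM or more in 1 library, and Mmp9 and Timp3 in none. In bulk libraries a gene that few cells express and one that all cells express weakly cannot be told apart.

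**Figure D1:**
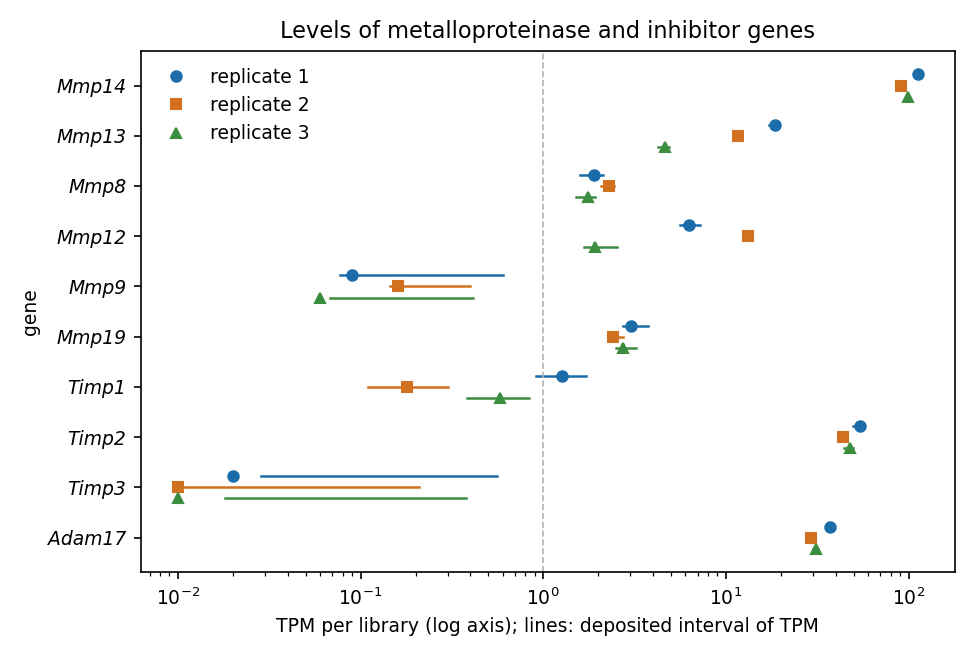
TPM of the 10 genes on a log axis, with 1 point for each of the 3 libraries and a line for the deposited interval of that TPM, whose confidence level the files do not state. Mmp14, Timp2 and Adam17 lie above 29 TPM in all libraries, Mmp13 and Mmp12 spread widely, and Mmp9 and Timp3 lie left of the dashed line at 1 TPM.

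The membrane-type enzyme Mmp14 (gene at chr14:54431612-54445364, plus strand) had 112, 91.3 and 99.9 TPM in replicates 1, 2 and 3, or 101 ± 10.6 TPM (SD, n = 3). It ranked 441st of all protein-coding genes, with 98.0% of them lower. These values rest on 11939, 25686 and 15758 expected counts. Its libraries lay within a 1.23-fold range, and within 1.07-fold after rescaling. Mmp14 alone made up 79.0%, 75.5% and 90.0% of the summed TPM of the 6 MMP members.

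Timp2, the inhibitor that binds pro-Mmp2 to Mmp14 (chr11:118301069-118355740, minus strand), had 54.4, 43.6 and 47.8 TPM, or 48.6 ± 5.44 TPM (SD, n = 3), from 6550, 14303 and 8720 counts. It ranked 924th of protein-coding genes and made up 97.7%, 99.6% and 98.8% of the summed TIMP level. The ratio of Timp2 to Mmp14 varied little between libraries, at 0.484, 0.478 and 0.478. In the second quantification deposited for the same libraries this ratio was 0.617, 0.702 and 0.623, so its size depends on the quantification. The substrate of that complex, Mmp2, was at 0.80, 0.45 and 0.57 TPM.

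Summed over genes, the 3 TIMPs had 55.7, 43.8 and 48.4 TPM and the 6 MMPs had 142, 121 and 111 TPM in replicates 1, 2 and 3. TIMP was below MMP in every library, with a log2 ratio of TIMP over MMP of -1.34 ± 0.13 (SD, n = 3). The difference was smaller in the second quantification (-0.91 ± 0.10 on the log2 scale) and in counts scaled by library size and TMM (CPM) (-1.13 ± 0.11), with the same sign. Without Mmp14 the other 5 MMPs summed to 29.9, 29.7 and 11.1 TPM, and Timp2 exceeded that sum by factors of 1.82, 1.47 and 4.30. Replicate 3 is the library in which the sum without Mmp14 was lowest.

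**Figure D2:**
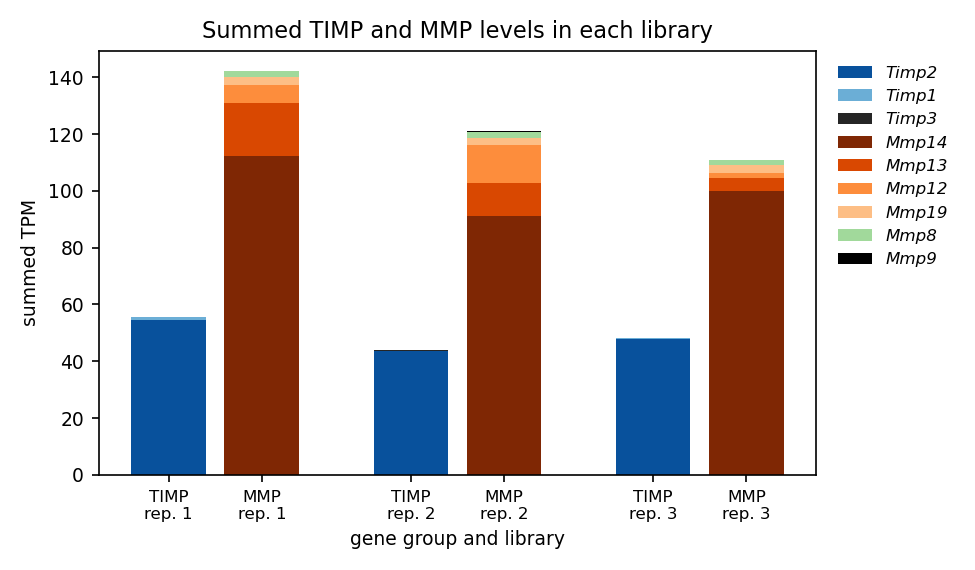
Summed TPM of the 3 TIMP genes (left bar of each pair) and the 6 MMP genes (right bar) in each library, with 1 coloured segment per gene; bars start at 0. Timp2 fills nearly all of the TIMP bars of 55.7, 43.8 and 48.4 TPM, and Mmp14 fills 79.0%, 75.5% and 90.0% of the MMP bars.

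Adam17 (chr12:21323509-21373632, minus strand) had 37.2, 29.2 and 31.1 TPM, or 32.5 ± 4.13 TPM (SD, n = 3), and ranked 1370th of protein-coding genes. Its counts were 7104, 14721 and 8761. Its exons share 311 bases with those of Iah1 on the opposite strand, at 11.1, 8.98 and 8.25 TPM, and whether counting used strand is not stated. Rhbdf2, the rhomboid that carries Adam17 to the cell surface, had 30.0, 25.9 and 23.0 TPM, and its relative Rhbdf1 had 0.02, 0.13 and 0.06 TPM. The ratio of Adam17 to Rhbdf2 was 1.24, 1.13 and 1.36. Furin, which removes the Adam17 propeptide, had 31.4, 23.9 and 18.9 TPM, and with Pcsk7 and Frmd8 the list of partners and convertases had 4 of 6 genes at 1 TPM or more in all libraries.

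The other ADAM proteases reached that level in 4 of 11 genes. Adam15 led with 48.5, 46.8 and 45.5 TPM, above Adam17 in all 3 libraries, followed by Adam8 at 30.6, 33.2 and 25.2 TPM and Adam9 at 30.3, 23.0 and 25.5 TPM. In the second quantification these orders held in part: in replicate 3 Adam15 was at 15.2 TPM and Adam17 at 15.4 TPM, and in replicate 2 Adam15 was at 18.0 TPM and Adam8 at 18.1 TPM. Adam10, the other main sheddase, was at 14.1, 12.0 and 12.9 TPM, and Adam17 exceeded it by factors of 2.64, 2.43 and 2.42. None of 19 ADAMTS genes, which encode secreted relatives, reached 1 TPM in all libraries. The highest of them, Adamts10, Adamts4 and Adamts1, averaged 0.65, 0.373 and 0.143 TPM. Of 18 listed Adam17 substrates, 11 were at 1 TPM or more in all libraries. Tnf led with 617, 492 and 406 TPM, the TNF receptor Tnfrsf1b had 362, 306 and 278 TPM and the adhesion molecule Icam1 had 181, 196 and 144 TPM.

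The collagenase Mmp13 (chr9:7272514-7283331, plus strand) had 18.5, 11.6 and 4.63 TPM in replicates 1, 2 and 3, or 11.6 ± 6.96 TPM (SD, n = 3). Replicate 1 was the highest and replicate 3 the lowest, a 4.0-fold range that rests on 2096, 3456 and 784 counts. Macrophage elastase, Mmp12 (chr9:7344381-7369499, plus strand), had 6.29, 13.2 and 1.93 TPM, or 7.15 ± 5.70 TPM (SD, n = 3), from 398, 2226 and 195 counts. Its highest library was replicate 2, and replicate 3 was again the lowest, with a 6.85-fold range. Without replicate 2 the mean of Mmp12 was 4.11 TPM. The 2 genes did not move together in the other libraries: the ratio of Mmp13 to Mmp12 was 2.95 in replicate 1, 0.877 in replicate 2 and 2.40 in replicate 3. Both were lowest in replicate 3 on all scales tried, which were TPM, rescaled TPM, the second quantification and CPM. Replicate 3 is also the library with the highest Malat1 and mitochondrial share, and the part of these in the result was not tested.

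The secreted enzyme Mmp19 (chr10:128790910-128800824, plus strand) had 3.03, 2.41 and 2.75 TPM, or 2.73 ± 0.31 TPM (SD, n = 3). Its exons share 789 of 3533 bases with Tmem198b on the opposite strand, at 1.76, 1.80 and 1.52 TPM, so some of its reads cannot be assigned without strand. The neutrophil collagenase Mmp8 (chr9:7558456-7568485, plus strand) had 1.90, 2.28 and 1.75 TPM, or 1.98 ± 0.27 TPM (SD, n = 3), from 193, 611 and 266 counts.

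The gelatinase Mmp9 (chr2:164940780-164955850, plus strand) was low, at 0.09, 0.16 and 0.06 TPM. It had 7, 49 and 12 counts, with 95% Poisson intervals of 2.81 to 14.4, 36.3 to 64.8 and 6.20 to 21, which cover counting error only. Mmp8 and Mmp9 are also stored in neutrophil granules, and 3 of 12 listed neutrophil markers were at 1 TPM or more in all libraries. These were Lcn2 at 28.7, 8.64 and 13.9 TPM, S100a9 at 4.10, 1.90 and 4.44 TPM, and S100a8 at 2.62, 1.48 and 2.14 TPM. The whole list summed to 36.6, 12.5 and 21.6 TPM, most of it from Lcn2. The sum was lowest in replicate 2, the library where Mmp8 and Mmp9 were highest. Of the 12 markers, 2 had their highest TPM in replicate 2, among them Prtn3 at 0.15, 0.23 and 0.10 TPM. Whether neutrophils contributed was not tested. Among the markers below these, Ngp was the highest, at 0.50, 0.11 and 0.71 TPM. Ly6g and Elane were at most 0.01 and 0.06 TPM, and Cxcr2 and Retnlg were listed at 0 in all libraries. In the second quantification Cxcr2 was at 0.042, 0.037 and 0.110 TPM. Lcn2 is also on the list of cell-surface control, since the human protein binds MMP9 and protects it from degradation.

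Timp1, the secreted inhibitor often described as induced in inflammation (chrX:20870166-20874735, plus strand), had 1.27, 0.18 and 0.58 TPM from 38, 14 and 25 counts. Replicate 1 was the highest and replicate 2 the lowest, a 7.06-fold range. Without replicate 1 its mean was 0.38 TPM, against 0.677 TPM over all 3. Timp1 lies within the gene Syn1 on the opposite strand, which had 3.03, 4.96 and 3.13 TPM, and their exons share no base. Timp3, which binds to the matrix and inhibits ADAM17 as well as MMPs (chr10:86300372-86349506, plus strand), was at 0.02, 0.01 and 0.01 TPM, from 5, 5.39 and 4 counts. Its TPM lay below the lower bound of its own deposited interval in all 3 libraries, at 0.0284, 0.0107 and 0.0180, and in the second quantification it was 0.0147, 0.0173 and 0.369 TPM. The same happened by a small margin for Mmp9 in replicate 3, and the TPM of Mmp14 in replicate 1 was just above its upper bound. A level for Timp3 could not be set from these counts beyond its being below 1 TPM in every library and both quantifications.

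In the order of mean TPM, each gene was above the next in all 3 libraries, with ranges that did not overlap, except for 2 neighbouring pairs. Mmp13 exceeded Mmp12 in 2 of 3 libraries and Mmp12 exceeded Mmp19 in 2 of 3, so these neighbours cannot be ordered beyond their spread. In the second quantification the same pairs were unordered, and Mmp9 exceeded Timp3 in 2 of 3 libraries.

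The spread between libraries, as the highest minus the lowest log2(TPM + 1), differed among the 7 members averaging at least 1 TPM. It was 2.28 for Mmp12 and 1.80 for Mmp13, and 100% and 99.8% of the 500 protein-coding genes nearest to each in level had less spread. It was 0.30 for Mmp14, 0.31 for Timp2, 0.34 for Adam17, 0.24 for Mmp19 and 0.25 for Mmp8, each with between 32% and 46% of the nearest genes below it. After rescaling, the spread of Mmp14, Timp2 and Adam17 was 0.10, 0.10 and 0.06, with 8.6%, 9.8% and 3.0% of the nearest genes below. Mmp8 moved the other way, to 0.48 after rescaling, with 65.4% of the nearest genes below. On that scale the spread of Mmp12 and Mmp13 was 2.65 and 1.69. The added 1 weighs less after rescaling, so a larger spread there need not mean a larger fold range. The fold range of Mmp12 was 7.02 after rescaling, against 6.85 by TPM. Among the members below 1 TPM, the spread was 0.94 for Timp1, 0.13 for Mmp9 and 0.01 for Timp3. The added 1 compresses the spread at such levels, so these values do not show steady genes. The highest library exceeded the lowest 7.06-fold for Timp1, 2.67-fold for Mmp9 and 2-fold for Timp3, against 1.23-fold for Mmp14. After rescaling, the spread of Timp1 was 1.54, with 97.2% of its nearest genes below, though its fold range was smaller, at 5.79.

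**Figure D3:**
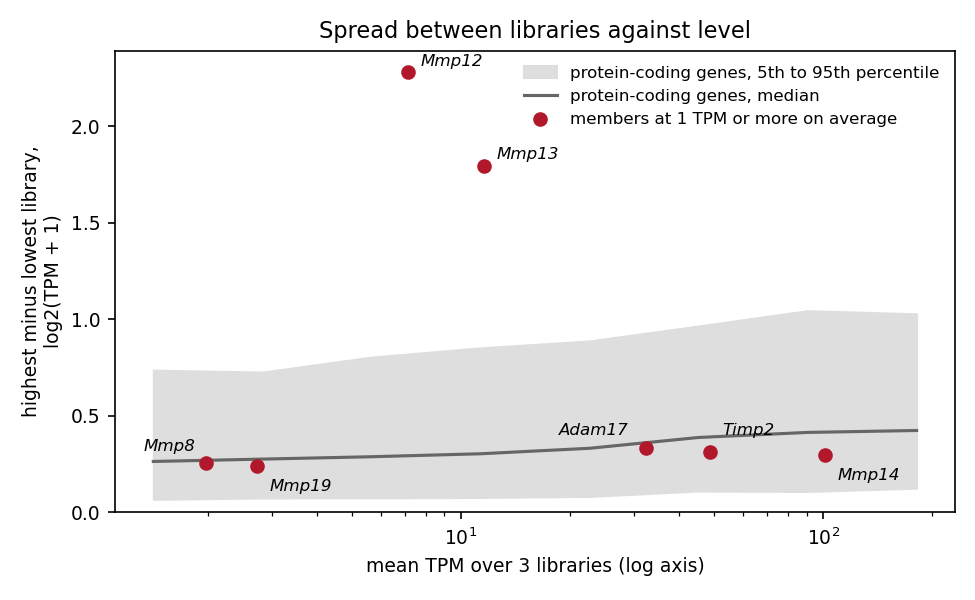
Spread between the 3 libraries, as highest minus lowest log2(TPM + 1), against mean TPM on a log axis, for the 7 members averaging at least 1 TPM (points), over the median and the 5th to 95th percentile of protein-coding genes in bins of level (line and band). Mmp12 at 2.28 and Mmp13 at 1.80 lie above the band, and the other 5 lie between 0.24 and 0.34, inside it.

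A chi-square test of homogeneity of the rounded counts, with Benjamini-Hochberg adjustment over 14568 genes, asked whether the libraries differed by more than counting error. It compares these libraries, not conditions, and it called 72.0% of all genes tested. Among the members 9 were tested and 6 were called at an adjusted p below 0.05, which is near that background. Mmp12 and Mmp13 had the smallest adjusted p of the set (6.12e-246 and 2.85e-229). Timp1 (4.51e-09), Adam17 (2.35e-08), Mmp8 (7.47e-08) and Mmp9 (0.000693) were also called. Mmp14 (adjusted p = 0.0693), Timp2 (0.324) and Mmp19 (0.395) were not called, and Timp3 had too few counts to be tested. Without replicate 2, where 52.5% of genes were called, Mmp8 and Mmp9 were no longer called and Mmp14 was. Mmp14 was also called with DESeq2 size factors (71.8% of genes called), and in the second quantification Mmp14, Timp2 and Timp3 were called (82.9%).

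By TPM, 7 members were highest in replicate 1, 3 in replicate 2 and 0 in replicate 3, against 62.4%, 18.0% and 19.6% of protein-coding genes averaging at least 1 TPM. On every scale the member counts include Timp1, Mmp9 and Timp3, which averaged below 1 TPM, so they and the shares cover unlike sets. The distribution differed between scales. After rescaling, 4, 3 and 3 members were highest in replicates 1, 2 and 3, against 26.4%, 38.4% and 35.2% of those genes. In CPM the counts were 6, 3 and 1 members, against 34.8%, 45.4% and 19.8%, and in the second quantification they were 2, 6 and 2, against 13.8%, 60.1% and 26.2%.

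Mmp13, Mmp12 and Mmp8 lie in the MMP gene cluster of chromosome 9, which runs over 427 kb from Mmp13 to Mmp7 and holds 13 annotated genes, 10 of them MMP genes. Of the 10, 4 were at 1 TPM or more in all libraries and 6 were below 0.1 TPM in all. The 4 were Mmp13, Mmp12, Mmp8 and Mmp27, and Mmp27 directly follows Mmp8. In the second quantification Mmp12 and Mmp8 were not at 1 TPM in all libraries. Mmp27 had 3.69, 2.44 and 2.91 TPM, above Mmp8 in each library. Mmp12 and the following gene, Mmp1b, share 157 exon bases on opposite strands, and Mmp1b was listed at 0. Mmp3 and Mmp10, whose human counterparts encode the stromelysins, were at no more than 0.01 and 0.08 TPM. Of the 17 listed MMP genes outside the set, Mmp27 was alone in reaching 1 TPM in all libraries, and 6 were listed at 0 in all. Next in level were Mmp2, given above, and Mmp25, in human a membrane-type enzyme of neutrophils, at 0.85, 0.29 and 0.38 TPM.

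**Figure D4:**
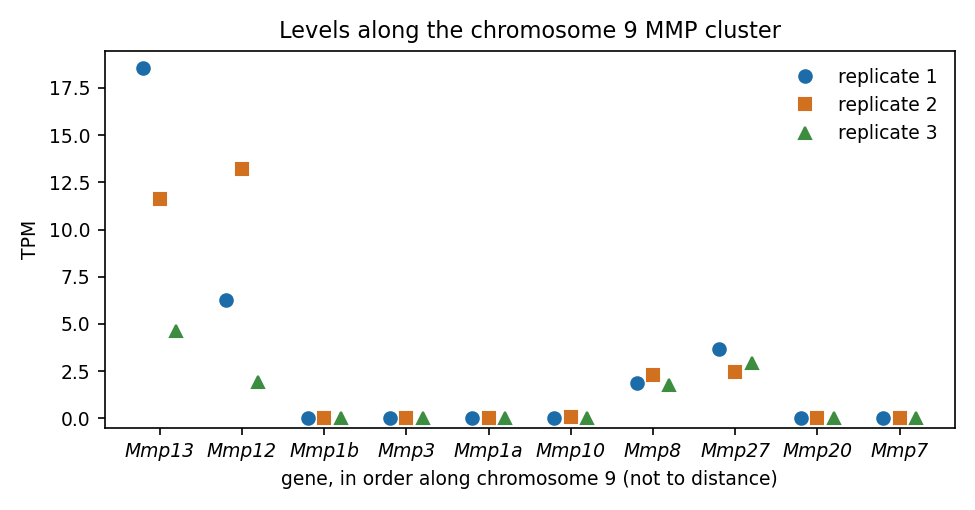
TPM of the 10 MMP genes of the chromosome 9 cluster in their order along the chromosome (not to distance), with 1 point per library. Mmp13, Mmp12, Mmp8 and Mmp27 are above 1 TPM in all 3 libraries and the other 6 lie at or near 0.

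Promoter sequences were read from RefSeq on GRCm38.p6 for the 8 members that had a window (9 windows); Mmp9 and Mmp19 had no entry. The AP-1 motif TGANTCA, which reads as itself on the opposite strand apart from its middle base, was searched for in the 250 bases before each start, because AP-1 control of Mmp13 and of human MMP12 is textbook knowledge and these were the 2 genes of widest spread, a choice made with their values known. It was found in 2 member windows, those of Mmp13 and of 1 of the 2 starts of Mmp12, and in 6.75% of all 32851 windows (6.13% of protein-coding ones). A match describes the letters and is not evidence of binding. The last 80 bases before these starts are shown with the motif in capitals, at -35 from the Mmp13 start and -44 from the downstream Mmp12 start. They lie on the plus strand at chr9:7272434-7272513 for Mmp13, chr9:7347294-7347373 for the downstream Mmp12 start and chr9:7344317-7344396 for the upstream Mmp12 start, which has no match.
Mmp13: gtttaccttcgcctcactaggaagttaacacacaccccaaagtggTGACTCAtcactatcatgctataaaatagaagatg
Mmp12 downstream: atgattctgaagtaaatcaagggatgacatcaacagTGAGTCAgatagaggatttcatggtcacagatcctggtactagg
Mmp12 upstream: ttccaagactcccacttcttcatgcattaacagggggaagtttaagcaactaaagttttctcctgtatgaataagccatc
The transcript tables give a level for each annotated transcript, so the 2 starts of Mmp12 could be set side by side. Transcripts from the downstream region held 59.4%, 54.8% and 63.9% of Mmp12 TPM in replicates 1, 2 and 3, and those from the upstream start held 40.6%, 45.2% and 36.1%. In the second quantification the downstream share was 52.2%, 42.7% and 69.3%. Both quantifications had the highest downstream share in replicate 3, the library with the lowest Mmp12 level, at 195 counts. In the second quantification the downstream share included the retained-intron transcript Mmp12-206, with 1.75%, 0.91% and 12.1% in replicates 1, 2 and 3. The downstream share is therefore not a plain measure of the use of that start. Of 15 listed regulators of MMP transcription, 11 were at 1 TPM or more in all libraries. The macrophage factor Spi1 had 137, 113 and 111 TPM, the AP-1 subunit Junb had 96.8, 72.2 and 77.6 TPM and the NF-kB subunit Nfkb1 had 64.7, 72.6 and 63.4 TPM.

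Among transcripts, a single one held more than 50% of the TPM in 9 of 10 members. Mmp14-201 held 95.3% ± 1.29 and Adam17-201 held 90.3% ± 2.42 (SD, n = 3), and both encode the proteins whose zinc sites are shown above. Mmp19-201 held 77.7% ± 4.31, and Mmp8 and Mmp13 have 1 annotated transcript each. Mmp12 was the exception: Mmp12-203 held 40.6% ± 4.56, and Mmp12-204, annotated as subject to nonsense-mediated decay, held 35.8% ± 2.95 and was the leader in replicate 3. For Timp1 the leader Timp1-202 held 78.0%, 72.2% and 36.8%, and Timp1-201 led in replicate 3, on few counts. Mmp9-201 held 73.1% ± 27.8 (SD, n = 3), with Mmp9-204 leading in replicate 1, and the lone Timp3 transcript above 0 in the first table, Timp3-201, held 100%, both on a handful of counts.

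Timp2 was the abundant member whose leader depended on the quantification. Timp2-201, of 3709 bases, held 72.0% ± 1.5 (SD, n = 3), and Timp2-202, of 718 bases, held the rest. In the second quantification Timp2-202 led with 53.6% ± 2.70. The leader was the same in both quantifications for 8 of 10 members, the others being Timp2 and Timp3. Of the retained-intron transcripts listed above 0 in the first table, Mmp14-204, Mmp14-205, Adam17-204 and Adam17-208 were highest in replicate 3 and Mmp14-207 in replicate 1. Mmp14-205 had 0.51, 0.26 and 1.71 TPM and Adam17-208 had 0.17, 0.06 and 0.70 TPM, both small beside their genes. In the second quantification all the retained-intron transcripts just named were highest in replicate 3. There Mmp14-207 had 0, 0 and 0.652 TPM in replicates 1, 2 and 3, so its highest library depended on the quantification. Replicate 3 also had the highest Malat1, and whether unspliced nuclear RNA contributed was not tested.

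**Figure D5:**
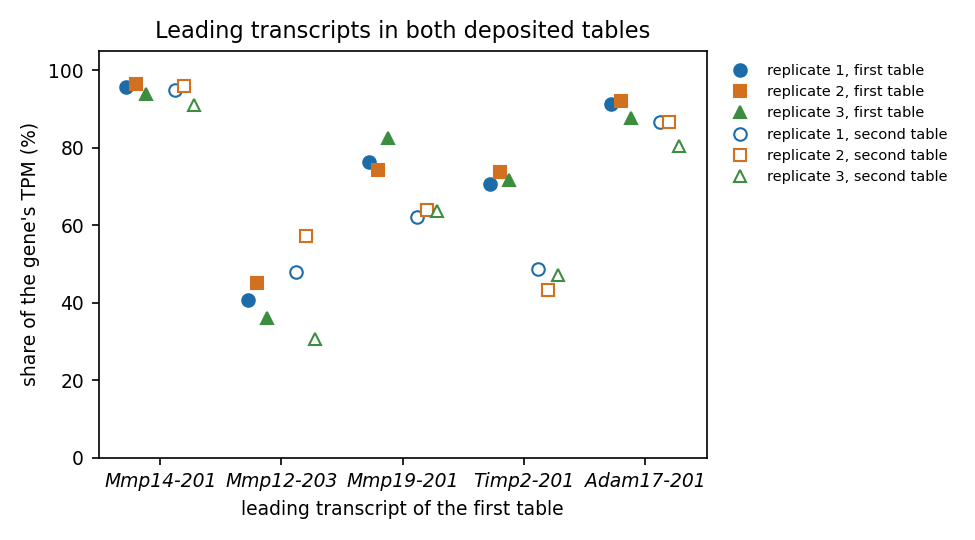
Share of the gene's TPM held by the leading transcript of Mmp14, Mmp12, Mmp19, Timp2 and Adam17, with 1 point per library, from the first deposited transcript table (filled) and the second (open). Mmp14-201 and Adam17-201 stay above 80% in both, and Timp2-201 is above 70% in the filled points and below 50% in the open ones.

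Other genes of the pathway were read from lists. Of the 7 other metalloproteinase inhibitors, 0 reached 1 TPM in all libraries and 5 were listed at 0. The highest, Tfpi2 and the membrane-anchored inhibitor Reck, averaged 0.05 and 0.0233 TPM. Of 16 genes of MMP activation and cell-surface control, 12 were at 1 TPM or more in all libraries, led by Cd63, a Timp1 receptor component, at 235, 196 and 184 TPM. Next were the integrin Itgb1 at 81.6, 84.0 and 76.4 TPM and Cd44, a hyaluronan receptor that docks Mmp14 and Mmp9, at 67.2, 103 and 52.8 TPM.

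Lysosomal cathepsins degrade matrix inside the cell and around it. Of 12 cathepsin and cystatin genes, 11 were at 1 TPM or more in all libraries. Ctsd had 2087, 2149 and 1968 TPM, Ctsb had 1877, 1568 and 1552 TPM and Ctss had 1295, 1014 and 966 TPM. Each exceeded Mmp14 in all libraries. Of 16 matrix proteins, 2 were at that level, and Spp1 (osteopontin) held nearly all of the list with 500, 505 and 311 TPM. Next were Lamc1 at 1.95, 2.72 and 1.80 TPM and Vcan at 1.09, 0.48 and 0.86 TPM. Mmp13 and Mmp14 are also used by osteoclasts, and of 7 osteoclast markers 2 were at 1 TPM or more, Acp5 at 9.85, 10.6 and 11.7 TPM and Nfatc1 at 6.90, 5.14 and 5.32 TPM. The remaining markers of the list, Ctsk, Calcr, Ocstamp, Dcstamp and Oscar, were below 1 TPM in all libraries. The list summed to 17.7, 16.2 and 17.4 TPM.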

How the data were processed

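The 3 libraries are cytosolic total RNA, with 1 µg put into each per the labels. Each had a gene table and a first transcript table with expected counts and TPM, and a second transcript table with estimated counts and TPM, all made by the authors per the file headers. Interval bounds of TPM, a signal on the TPM scale, were deposited with no confidence level. The assembly was mm10 and the annotation GENCODE M21, per the file headers. The aligner, the quantifiers and whether counting used strand are not stated in the labels or headers. Rows that name no gene (26345 of 81881) stayed out of library sizes; their share of counts was 0.350%, 0.169% and 0.168% in replicates 1, 2 and 3.

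Deposited TPM were used as levels. Counts were rounded, scaled with TMM (edgeR 4.0.16) or DESeq2 1.42.0 size factors, and tested by chi-square where any library had 10 counts or more. The procedure was checked on simulated Poisson counts, the model that the test assumes. That check does not cover the variation of real libraries beyond counting error. Software was scipy 1.17.1, matplotlib 3.10.9, pandas 2.3.3 and numpy 2.4.6 under Python 3.11.15, and R 4.3.3. Second-table values were summed per gene and were present for 55450 of 55536 genes. The alternatives were rescaled TPM, the second quantification, CPM, other thresholds and leaving out each library.

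The members and the 14 gene lists were chosen with earlier results of these data known. Named are all members, the 3 highest genes of each list, and other MMPs or inhibitors averaging at least 1 TPM; further names (Rhbdf1, Pcsk7, Frmd8, Adam10, Mmp1b, Mmp3, Mmp10, Mmp7, overlapping genes, Cxcr2 and other markers near 0, and transcripts that are not leaders) were chosen after their values were seen.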

Additional observations from a re-analysis of the deposited data

How the results depend on the processing

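No paired analysis was possible because the libraries form 1 group. The log2 ratio of TIMP over MMP stayed below 0 in every alternative where it was computed. Orders between genes depended on the scale. In CPM, Adam17 was above Timp2 in all 3 libraries, at 246, 234 and 223 against 227, 227 and 222, the reverse of their order by TPM. After rescaling, 4 members were highest in replicate 1, and 2 in the second quantification, against 7 by TPM. The median member level, 4.94 TPM, was 17.1 after rescaling, 16.0 in CPM and 2.63 in the second quantification. Single member levels moved by more than 1 SD for 10 of 10 members after rescaling, 9 in CPM and 7 in the second quantification, where Mmp14 averaged 49.4 TPM and Adam17 15.6 TPM. Rescaling multiplied TPM by 3.02, 3.67 and 3.59 in replicates 1, 2 and 3, and CPM has no length correction. Moves of level on these 2 scales therefore come with the change of unit and do not measure how stable a level is. The second quantification gave lower mean TPM for all members except Timp3, by factors of 1.52 (Timp2) to 2.45 (Mmp9). Abundant genes outside the set were lower there too, such as Lyz2 at 1048, 1476 and 1246 TPM against 2748, 2752 and 2753. A lower level in that quantification is therefore not particular to the members. The log2 ratio of TIMP over MMP was -0.906 in the second quantification and -1.13 in CPM. At 5 TPM, 3 members passed in all libraries in place of 7, and in the second quantification 5 passed at 1 TPM. The shares of all protein-coding genes passing in these settings were not computed. The median share of the leading transcript, 84.0%, was 74.8% in the second quantification. Leaving out each library moved the median spread between 0.134 (without replicate 1) and 0.305, with 0.176 without replicate 2, and the leading share between 83.5% and 88.7%. The causes of the other changes were not tested. Of 9 members tested by chi-square, 6 were called (72.0% of all genes), 7 with DESeq2 size factors (71.8%) and, of 10 in the second quantification, 9 (82.9%). No value was obtained for the highest library without replicate 1. Depth limits Mmp9, Timp1 and Timp3, with 4 to 49 counts in a library.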
